A study of Mus musculus with 15 samples.

Results

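The genes described here encode the nuclear subunits of 3 machines of the inner mitochondrial membrane. They are complex III (the cytochrome bc1 complex), complex IV (cytochrome c oxidase) and ATP synthase. A gene was taken as a member where its symbol in the platform annotation begins with Uqcr, with Atp5, or with Cox followed by 4, 5, 6, 7 or 8. Cyc1 and Ndufa4, whose names do not follow that pattern, were added. The rule found 44 of the 19938 genes that have a probe set with a single symbol, 9 of them in complex III, 18 in complex IV and 17 in ATP synthase. Where a gene had several probe sets, that with the highest mean over all arrays was used. Cox7c had only probe sets shared with another gene and was therefore no member. The rule uses gene names only.

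RNA came from the choroid plexus, the ventricular tissue whose epithelium makes cerebrospinal fluid, dissected from mice of the C57BL/6J strain that were 3 weeks old and labelled male. There were 5 wild-type mice, 5 heterozygous mice and 5 null mice for Add1, the gene of the membrane-skeleton protein alpha-adducin, and each mouse gave 1 Affymetrix array. The age was chosen to precede hydrocephalus, per the series' design text. The sources used here name neither the allele nor the part of the gene it removes, and the animals carried no other labelled allele or treatment. Arrays are written W1 to W5 (wild type), H1 to H5 (heterozygous) and N1 to N5 (null), after the replicate numbers in the titles. Levels are log2 values, on which -1 is a fall to 50% of the starting level.

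Complex III passes electrons from ubiquinol to cytochrome c and moves protons out of the matrix. Complex IV passes the electrons on to oxygen and moves further protons, and ATP synthase lets protons flow back through a ring of c subunits to drive the making of ATP. The choroid plexus epithelium is rich in mitochondria, which supply the ion pumps behind fluid secretion. Several subunits of complex IV and the c subunit of ATP synthase exist as isoforms from separate genes, some of them typical of muscle, lung or testis.

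Promoter sequences are shown for the pairs Cox7a1 and Cox7a2 and Atp5g1 and Atp5g2, because within each pair one gene fell further than the other in null arrays, as the values below describe. Each is the stretch of 250 bases before the annotated start, from RefSeq on GRCm38.p6, written 5′ to 3′ on the strand of the gene. Capitals mark matches on either strand to any of 5 motifs that a search looked for. The motif of ETS factors was CCGGAAG, and that of the factor NRF1 was GCGC, then A and any base, then GCGC. The others were the CCAAT box, the TATA box as TATAAA, and the GC box as GGGCGG. No motif contains another.
Cox7a1, chr7:30183921-30184170, plus strand: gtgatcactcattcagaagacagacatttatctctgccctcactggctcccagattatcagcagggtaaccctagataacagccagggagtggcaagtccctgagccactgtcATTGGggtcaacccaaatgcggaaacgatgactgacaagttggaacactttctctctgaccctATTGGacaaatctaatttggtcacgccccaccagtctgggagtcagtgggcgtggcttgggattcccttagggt
Cox7a2, chr9:79759854-79760103, minus strand: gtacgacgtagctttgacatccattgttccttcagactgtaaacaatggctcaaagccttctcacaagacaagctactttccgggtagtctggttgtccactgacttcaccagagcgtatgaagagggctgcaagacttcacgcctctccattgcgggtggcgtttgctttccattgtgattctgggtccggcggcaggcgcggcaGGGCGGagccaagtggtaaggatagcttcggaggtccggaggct
Atp5g1, chr11:96075632-96075881, minus strand: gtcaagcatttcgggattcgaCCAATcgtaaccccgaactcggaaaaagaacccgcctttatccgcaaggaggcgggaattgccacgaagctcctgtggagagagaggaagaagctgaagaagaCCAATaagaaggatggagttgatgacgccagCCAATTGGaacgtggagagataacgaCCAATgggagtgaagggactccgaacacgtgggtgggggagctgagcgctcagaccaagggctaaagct
Atp5g2, chr15:102671048-102671297, minus strand: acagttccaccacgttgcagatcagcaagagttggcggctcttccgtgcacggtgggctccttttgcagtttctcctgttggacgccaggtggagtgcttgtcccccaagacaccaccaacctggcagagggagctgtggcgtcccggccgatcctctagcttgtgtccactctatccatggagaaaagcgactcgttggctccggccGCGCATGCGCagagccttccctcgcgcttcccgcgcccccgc

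The Cox7a1 window held 2 CCAAT matches and 4 CpG dinucleotides, and the Cox7a2 window held 1 GGGCGG match and 14 CpG dinucleotides. The Atp5g1 window held 5 CCAAT matches, 2 of which overlap on opposite strands, and the Atp5g2 window held 1 NRF1 match. Among the 33 members with a window in the RefSeq table, CCGGAAG was present in 8 (24.2%), against 7.83% of all 27025 genes with a window. The NRF1 motif was present in 5 members (15.2%), against 4.23% of all genes, and CCAAT in 18 (54.5%), against 37.5%. TATAAA was found in 3 members (9.09%), against 14.3% of all genes, and GGGCGG in 11 (33.3%), against 35.4%. Member windows held a median of 13.5 CpG dinucleotides, against 6 over all windows. CCGGAAG, the NRF1 motif and GGGCGG each contain CpG, and the shares were not compared with windows of like CpG content. Of the 12 members with a window that fell in null arrays, 1 held CCGGAAG and 1 the NRF1 motif, and of the 20 tested members with a window that did not pass the test, 7 and 4 did. CCAAT was held by 5 of those 12 and by 12 of those 20. These matches describe letters in the windows, and no binding was measured.

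The tissue label was checked first. All 10 of the epithelial markers of the choroid plexus that had a probe set, such as Ttr and Kl, were above the low-level filter, and their summed level was 14.81 to 14.97 over all arrays. The mean of Add1 itself was 7.92 over W1 to W5, 7.76 over H1 to H5 and 7.61 over N1 to N5, a null difference of -0.31 (adjusted p = 0.0241). That call was lost without W1, W2 or N4 (-0.30 to -0.28, adjusted p = 0.0512 to 0.0681), without N1 and N5 (-0.26, adjusted p = 0.1), with only the 2 genotypes compared (adjusted p = 0.0535), with the replicate number as a block (adjusted p = 0.0575), and with a linear term for a label number described below (-0.27, adjusted p = 0.25). Which part of the gene its probe set covers is not known here. N1 and N5 read 9.09 and 9.69 for Xist, an RNA of the inactive X chromosome, where all other arrays read at most 3.88, and they read low for Y-linked genes. They therefore went against their male label, and counts of members, pathway genes and cell type markers are given below with and without them. H1 stood apart by its neuronal and cerebellar markers (summed levels up to 9.52 and 10.3, where wild-type arrays reached at most 8.40 and 9.20). Its oligodendrocyte and astrocyte markers were high too (summed levels 9.84 and 10.4, where wild-type arrays reached at most 9.12 and 9.85). For the astrocyte markers null arrays reached 10.5.

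Subunits of all 3 complexes were lower in null than in wild-type choroid plexus. Of the 41 members above the filter, 17 fell at an adjusted p under 0.05 in limma's test and 0 rose. Among all 10109 genes tested, 3.54% were called lower, 4.17% higher and 7.72% in either direction. The median difference of the 41 members was -0.26, against 0.01 over all genes, and 39 of them were below 0, against 46% of all genes. In 7 members no null array reached the lowest wild-type array, which was so for 2.49% of all genes. By complex, 7 of 9 members fell in complex III (median -0.28), 4 of 15 in complex IV (median -0.24) and 6 of 17 in ATP synthase (median -0.18). Tissue of this kind is a mixture, so that fewer cells of a type and less RNA per cell cannot be told apart.

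**Figure D1:**
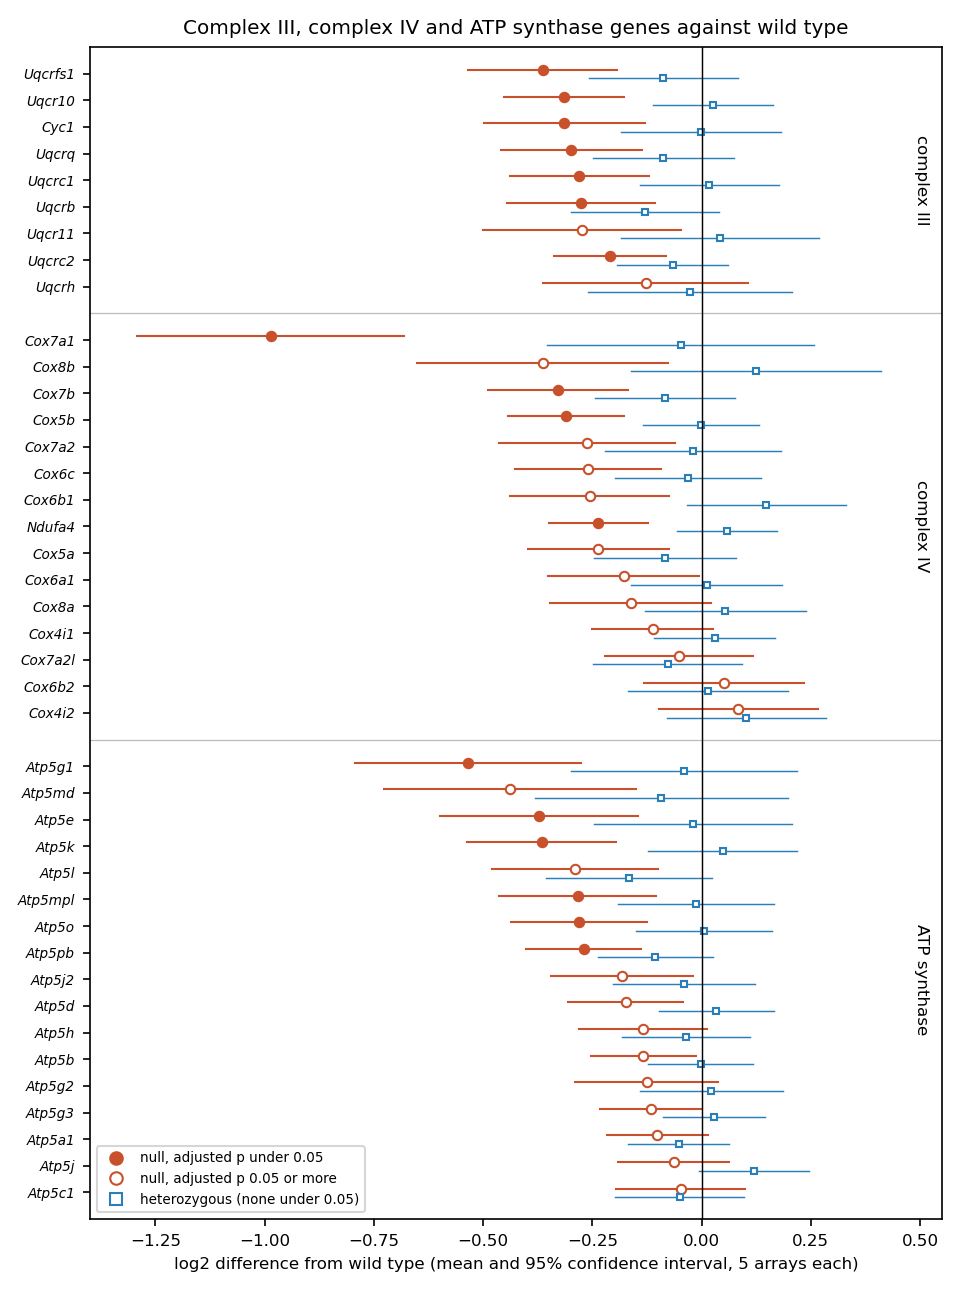
Log2 difference from wild type (x axis, mean and 95% confidence interval, 5 arrays each) for the 41 members above the filter, by complex. Circles are null arrays, filled where the adjusted p was under 0.05, and squares are heterozygous arrays. The 17 filled circles all lie left of 0, with Cox7a1 farthest at -0.99, and the squares lie between -0.17 and 0.15.

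The count depended on single animals, while the median stayed between -0.29 and -0.20 in all fits. Without N1 and N5 the fit called 3 members (Cox7a1, Uqcr10 and Atp5l), 39 stayed below 0, and the median was -0.21; over all genes 1.4% were then called lower. N2 was the least shifted, and without it 26 members were called and 41 were below 0. Without W1, W2 or W3 the fit called 9, 10 and 10 members, and without N1 it called 9. The samples also carry a label number of unstated meaning, which ran from 444 to 483 in null and from 429 to 451 in wild-type mice. The 15 mice hold 8 such numbers, and 11 of them share one with another mouse, but no number holds both null and wild-type mice. N2 and H5 share a number, and the other null mice share none with another genotype. Over the 41 members, mean deviations from the 15-array means were -0.008 in N2 and 0.013 in H5. They were -0.283 to -0.103 in the other null arrays. Whether the lower values follow the label number among null mice was not tested. The null mice hold 4 numbers and the wild-type mice 3. With that number as a linear term, Cox7a1 alone was called (1 of 41, and 1.1% of all genes lower), and 37 members stayed below 0 with a median of -0.20. With the number as a random block, an alternative chosen after seeing the data, 15 members were called and the median was -0.26. The correlation within numbers was estimated at 0.033, so that fit stayed close to the main one. A random block does not remove a difference between the numbers of null and wild-type mice, since none holds both. A common median for all arrays gave 20 lower members, and over all genes 510 lower and 378 higher calls in place of 358 and 422. The same 9 members kept their call whichever of the 15 arrays was left out: Cox7a1, Cox5b, Uqcr10, Uqcrfs1, Ndufa4, Atp5k, Atp5g1, Atp5pb and Cox7b. Of these 9, only Cox7a1 and Uqcr10 were also called without both N1 and N5.

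**Figure D2:**
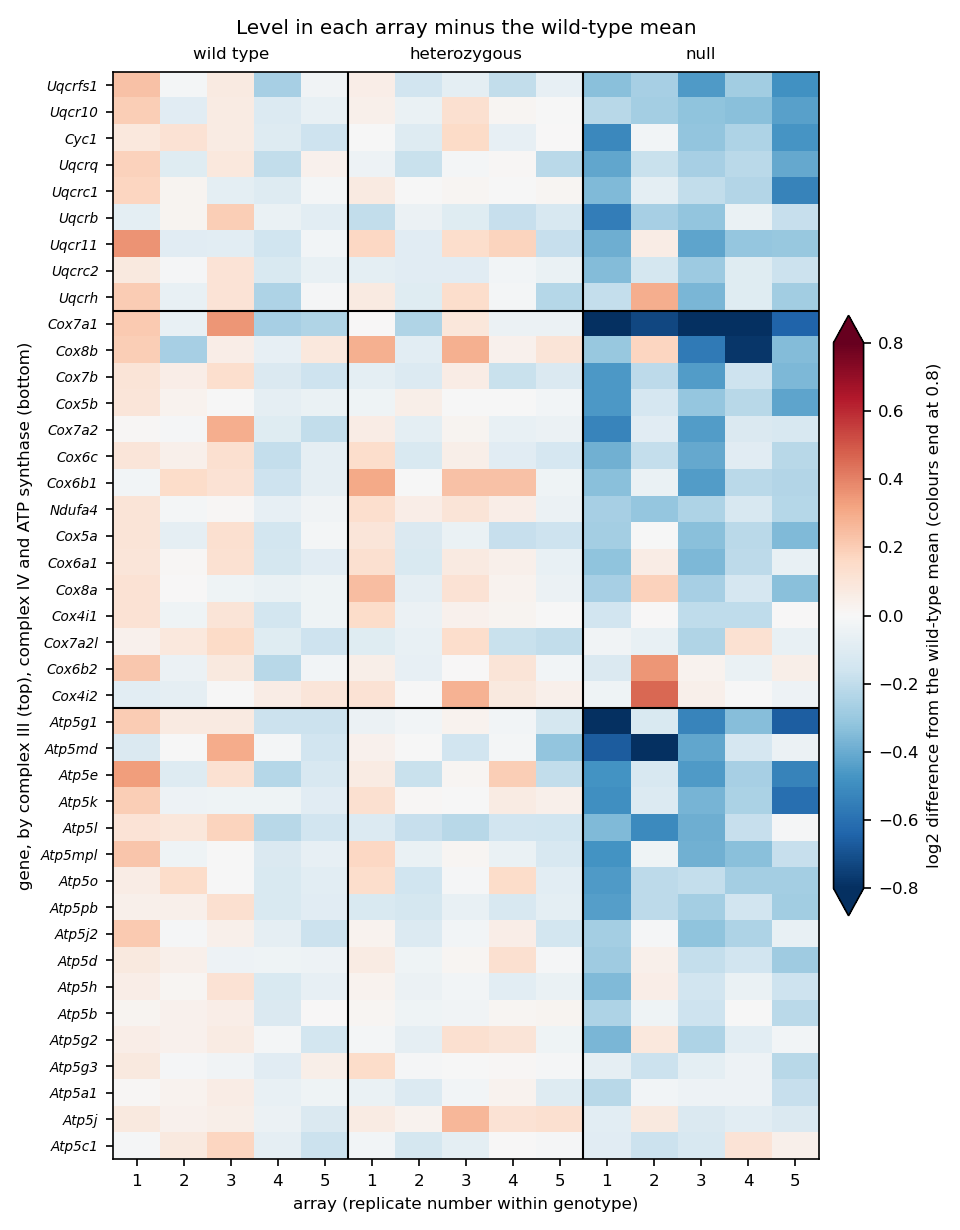
Level of each member in each array minus the wild-type mean of that member (colour, log2), with genes in rows by complex and the 15 arrays in columns by genotype. N1 and N3 are blue almost throughout, N2 is the palest of the 5, and the heterozygous columns hold both colours, as the wild-type columns do.

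Averaged over the 41 members, each array's deviation from the 15-array means was 0.194, 0.085, 0.168, -0.032 and 0.011 in W1 to W5. It was 0.136, 0.009, 0.124, 0.084 and 0.013 in heterozygous arrays, and -0.283, -0.008, -0.227, -0.103 and -0.170 in null arrays. N2 thus lay above W4, and the other 4 null arrays lay below every other array. The number of members below their lowest wild-type value was 34, 13, 35, 23 and 29 of 41 in the null arrays, and 1 to 8 in the heterozygous arrays. The same count was not made over all genes, so these numbers describe the members only. W1 and W3 were the highest in this mean, and the spread within wild type was close to the size of the median null difference.

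**Figure D3:**
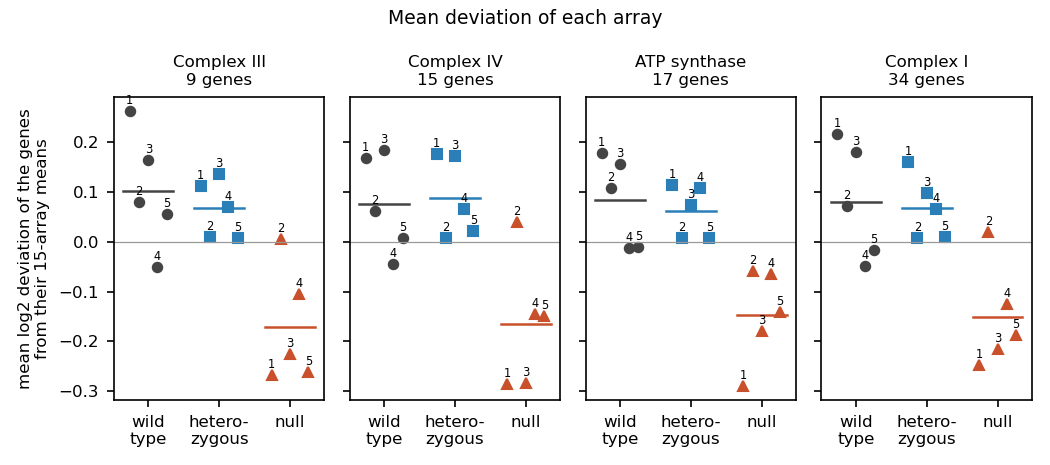
Mean log2 deviation of each array from the 15-array means (y axis), for complex III, complex IV and ATP synthase and, for comparison, complex I; points are arrays with their replicate number and lines are group means. The null arrays other than N2 lie below all others in each panel; N2 joins them for ATP synthase and lies above the lowest wild-type array for the rest.

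In complex III both catalytic subunits fell. Cyc1, the cytochrome c1 that hands electrons to cytochrome c, read 9.34, 9.37, 9.32, 9.15 and 9.09 in W1 to W5, 9.25, 9.15, 9.41, 9.19 and 9.26 in H1 to H5 and 8.74, 9.23, 8.94, 9.01 and 8.78 in N1 to N5. N2 lay above W4 and W5, and the other 4 null arrays lay below every wild-type array. The difference was -0.31 (SE 0.087, adjusted p = 0.0361). Uqcrfs1, the Rieske iron-sulfur protein, read 7.73, 7.48, 7.57, 7.23 and 7.47 in W1 to W5, 7.55, 7.34, 7.42, 7.30 and 7.43 in H1 to H5 and 7.16, 7.23, 7.04, 7.22 and 7.01 in N1 to N5. Its highest null array only equalled its lowest wild-type array, and the difference was -0.36 (SE 0.081, adjusted p = 0.0115). The Cyc1 call was lost without W1, W2 or W3 or N1, N3 or N5 (differences -0.31 to -0.26, adjusted p = 0.0676 to 0.106). Without both N1 and N5 it was lost too, at -0.19 (adjusted p = 0.227), as was that of Uqcrfs1, at -0.33 (adjusted p = 0.0628).

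The core proteins of complex III, which form its matrix side, also fell. For Uqcrc1 the arrays read 10.27, 10.12, 10.02, 9.99 and 10.08 in W1 to W5, 10.17, 10.09, 10.11, 10.09 and 10.11 in H1 to H5 and 9.74, 10.02, 9.90, 9.86 and 9.56 in N1 to N5. N2 overlapped the wild-type range and the others did not, and N5 was the lowest. Its difference was -0.28 (SE 0.076, adjusted p = 0.0316), and the call was lost without W1 or W2 or N1 or N5 (-0.27 to -0.22, adjusted p = 0.0529 to 0.0948). Without both N1 and N5 the Uqcrc1 difference was -0.17 (adjusted p = 0.178). For Uqcrc2 the difference was -0.21 (SE 0.06, adjusted p = 0.0423). That call was lost without any 1 of 9 arrays (W1 to W3, H2 to H5, N1 and N3), at -0.21 to -0.18 and adjusted p = 0.0513 to 0.118.

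Among the 5 small subunits of complex III, 3 fell. Uqcr10 read 8.79, 8.5, 8.66, 8.48 and 8.53 in W1 to W5, 8.63, 8.54, 8.72, 8.61 and 8.59 in H1 to H5 and 8.37, 8.32, 8.27, 8.26 and 8.16 in N1 to N5. The null arrays did not overlap with either other genotype, and the difference was -0.32 (SE 0.065, adjusted p = 0.00784). Uqcrq, a small ubiquinone-binding subunit, read 8.52, 8.24, 8.42, 8.14 and 8.37 in W1 to W5, 8.30, 8.16, 8.32, 8.35 and 8.12 in H1 to H5 and 7.92, 8.16, 8.07, 8.12 and 7.93 in N1 to N5, a difference of -0.30 (SE 0.076, adjusted p = 0.0258). Only N2 reached the wild-type range. Uqcrb also fell, at -0.28 (SE 0.08, adjusted p = 0.0443). Of the small subunits that did not pass, Uqcr11 differed by -0.27 (SE 0.11, adjusted p = 0.127) and the hinge protein Uqcrh by -0.13 (SE 0.11, adjusted p = 0.519). The Uqcrq call was lost without W1 or W3 or N1 (-0.28 to -0.25, adjusted p = 0.0683 to 0.0779). The Uqcrb call was lost without any 1 of 10 arrays (W1 to W4, H2 to H5, N1 and N3), at -0.30 to -0.21 and adjusted p = 0.054 to 0.123. Uqcr11 passed without N2 (-0.36, adjusted p = 0.0251).

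Complex IV held the largest change of all members, in a muscle-type isoform. Cox7a1, the form of subunit VIIa typical of heart and skeletal muscle, read 7.83, 7.56, 7.97, 7.35 and 7.38 in W1 to W5, 7.62, 7.38, 7.71, 7.57 and 7.57 in H1 to H5 and 6.13, 6.89, 6.44, 6.72 and 6.98 in N1 to N5. The highest null array (6.98) was below the lowest of wild type (7.35), and the heterozygous arrays lay within the wild-type range. Means were 7.62 ± 0.274 for W1 to W5 and 6.63 ± 0.348 for N1 to N5 (SD, n = 5 each), so that the null level was 50.5% of wild type. The difference was -0.99 (SE 0.15, adjusted p = 0.000942). It was -1.07 to -0.86 over the 15 fits that each left out 1 array, passed the test in all of them, and passed too without N1 and N5 and with the label number as a term.

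Levels of the muscle markers were low in every group. The highest of the 10 skeletal and heart muscle markers in any array read 5.59 (Ckm in W4), and 1 of the 10 was above the filter. Their summed level was 7.87 to 8.05 in wild-type and 7.80 to 8.09 in null arrays. Ucp1, the defining gene of brown fat, where Cox7a1 is also abundant, read 3.61 to 3.97 in all arrays. Of the 5 brown fat markers 2 were above the filter, Cidea at 5.85 to 6.37 and Plin1 at 4.93 to 5.60 over all arrays, and 0 of the 2 passed the test; the summed level was 7.05 to 7.31 in wild-type and 6.98 to 7.32 in null arrays. Pericyte and smooth muscle markers summed to 8.77 to 9.22 in wild-type and 8.82 to 9.34 in null arrays. None of the 4 above the filter passed with all arrays; Pdgfrb (0.32, adjusted p = 0.26) passed without N5 (0.48, adjusted p = 0.0389) and without N1 and N5 (0.60, adjusted p = 0.0203).

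Of the other subunits of complex IV that are made in most tissues, 3 of 10 fell. Cox5b, a zinc-binding subunit on the matrix side, read 11.02, 10.95, 10.92, 10.85 and 10.87 in W1 to W5, 10.89, 10.97, 10.92, 10.92 and 10.90 in H1 to H5 and 10.46, 10.79, 10.61, 10.70 and 10.5 in N1 to N5. No null array reached another genotype, and the difference was -0.31 (SE 0.063, adjusted p = 0.00697). Ndufa4, once counted with complex I and now placed in complex IV, read 11.51, 11.39, 11.42, 11.34 and 11.38 in W1 to W5, 11.54, 11.46, 11.51, 11.46 and 11.36 in H1 to H5 and 11.14, 11.10, 11.16, 11.28 and 11.18 in N1 to N5. The null arrays again lay below all others, with a difference of -0.24 (SE 0.054, adjusted p = 0.0139). Cox7b, a small subunit needed for assembly, read 9.90, 9.85, 9.93, 9.68 and 9.63 in W1 to W5, 9.72, 9.69, 9.86, 9.62 and 9.68 in H1 to H5 and 9.34, 9.59, 9.35, 9.63 and 9.44 in N1 to N5. N4 equalled the lowest wild-type array, and the difference was -0.33 (SE 0.076, adjusted p = 0.0147). Without N1 and N5 all 3 calls were lost, with Cox5b at -0.22, Ndufa4 at -0.23 and Cox7b at -0.27 (adjusted p = 0.0502 to 0.0905).

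The remaining general subunits had values below 0 that did not pass. Cox4i1, a large regulatory subunit, read 9.89, 9.74, 9.88, 9.63 and 9.74 in W1 to W5, 9.92, 9.73, 9.81, 9.80 and 9.77 in H1 to H5 and 9.62, 9.78, 9.57, 9.57 and 9.78 in N1 to N5, a difference of -0.11 (SE 0.066, adjusted p = 0.315). Cox5a, a subunit on the matrix side, read 8.73, 8.55, 8.75, 8.48 and 8.61 in W1 to W5, 8.72, 8.51, 8.57, 8.44 and 8.46 in H1 to H5 and 8.35, 8.62, 8.29, 8.41 and 8.27 in N1 to N5, a difference of -0.24 (SE 0.077, adjusted p = 0.0687). Apart from N2, the null arrays of Cox5a lay below the wild-type range, while those of Cox4i1 overlapped it. Cox6a1 differed by -0.18 (SE 0.082, adjusted p = 0.192) and Cox6c by -0.26 (SE 0.079, adjusted p = 0.0529). Without N2, Cox5a, Cox6a1 and Cox6c passed (-0.29, -0.24 and -0.28), as did Cox6b1, Cox7a2 and Cox8a (-0.31, -0.31 and -0.25). Cox6c also passed without W4, H1 or N4 (adjusted p = 0.0295 to 0.0429 over its 4 fits).

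Isoform pairs were compared within each array, as the difference between the probe sets of a pair, so that a shift shared by both genes drops out. Probe sets differ in brightness, so the size of this difference has no meaning by itself and its change between genotypes was tested. Of 11 pairs, 8 had both genes above the filter, and the exact two-sided permutation test over all regroupings of the 5 and 5 arrays, whose smallest p is 0.00794, was adjusted over the 8. Cox6a2, Cox7b2 and Cox8c, forms typical of muscle or testis, stayed below the filter, at 5.12 to 5.52, 3.00 to 3.56 and 4.31 to 4.66.

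Cox7a1 changed more than its partner. Cox7a2, the general form of subunit VIIa, read 8.93, 8.91, 9.21, 8.82 and 8.72 in W1 to W5, 8.98, 8.84, 8.94, 8.86 and 8.87 in H1 to H5 and 8.39, 8.83, 8.47, 8.80 and 8.79 in N1 to N5, a difference of -0.26 (SE 0.095, adjusted p = 0.102). In N2, N4 and N5 it lay within the wild-type range. Cox7a1 minus Cox7a2 was -1.10, -1.35, -1.24, -1.47 and -1.34 in wild-type arrays, -1.36, -1.46, -1.23, -1.29 and -1.30 in heterozygous arrays, and -2.26, -1.94, -2.03, -2.08 and -1.81 in null arrays. The null arrays lay apart from both other genotypes. The change was -0.72 (exact p = 0.00794, adjusted p = 0.0317) against wild type and -0.70 (exact p = 0.00794, adjusted p = 0.0212) against heterozygous arrays. Without N1 and N5 it was -0.72 against wild type, with an exact p of 0.0179, the smallest that 3 against 5 arrays can give, so that over 8 pairs it passes only where other pairs have small p-values too. Its adjusted p was 0.0714. In limma, an alternative chosen after seeing the data, the pair then had an adjusted p of 0.000323. Over the fits that left out 1 array it was -0.78 to -0.67. In 6 of them (without W2 to W5, N1 or N5) the pair alone was at the smallest exact p, 0.00794, and its adjusted p was 0.0635, the floor for a pair whose p is not shared or approached by others.

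**Figure D4:**
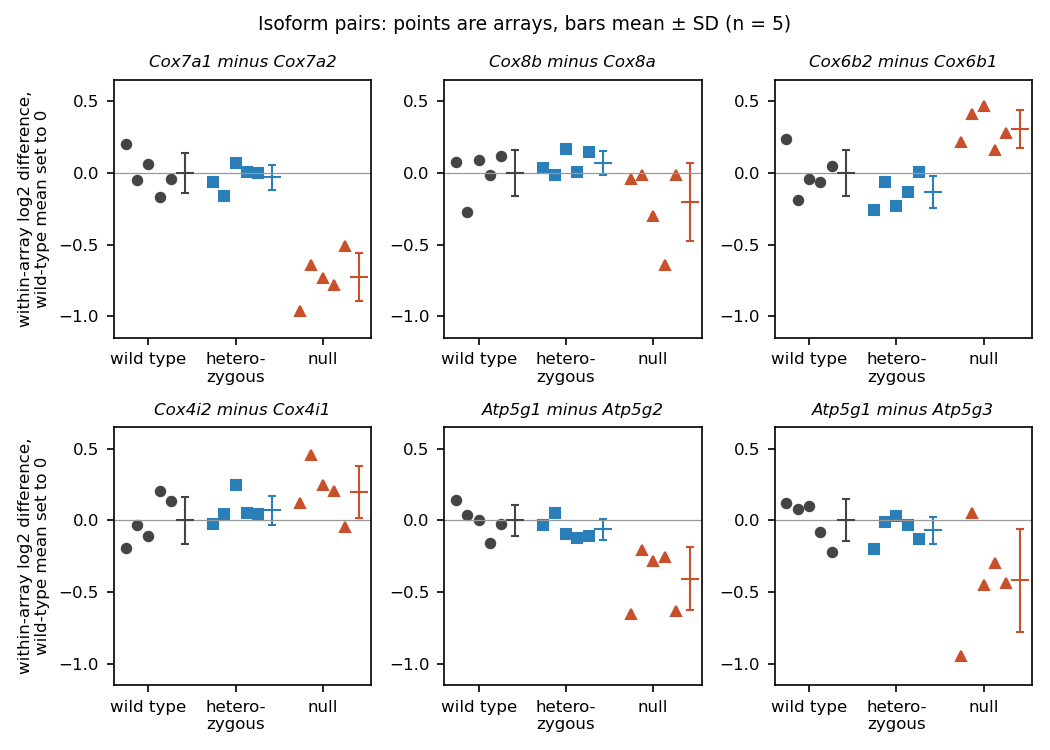
Within-array log2 difference between isoforms, with the wild-type mean set to 0 (y axis), for 6 pairs; points are arrays and bars are mean ± SD (n = 5). The null arrays lie apart from wild type for Cox7a1 minus Cox7a2 and for Atp5g1 minus Atp5g2, and overlap it in the other 4 panels.

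The related factor Cox7a2l, which joins complexes III and IV into supercomplexes, read 7.42, 7.47, 7.54, 7.29 and 7.22 in W1 to W5, 7.29, 7.33, 7.53, 7.21 and 7.19 in H1 to H5 and 7.36, 7.33, 7.15, 7.51 and 7.33 in N1 to N5. Genotypes overlapped, with a difference of -0.05 (SE 0.08, adjusted p = 0.741), and its second probe set was at 0.02. Relative to Cox7a2 its change was 0.21 (exact p = 0.0476, adjusted p = 0.0762), which missed the threshold.

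Cox8b, the muscle-type form of subunit VIII in rodents, read 7.68, 7.22, 7.54, 7.42 and 7.57 in W1 to W5, 7.77, 7.40, 7.77, 7.52 and 7.59 in H1 to H5 and 7.18, 7.66, 6.92, 6.71 and 7.14 in N1 to N5. N2 lay at the top of the wild-type range and the other 4 null arrays lay below it. The difference was -0.36 (SE 0.14, adjusted p = 0.11) against wild type and -0.49 (SE 0.14, adjusted p = 0.0372) against heterozygous arrays. Cox8a, the general form, read 9.59, 9.48, 9.44, 9.42 and 9.44 in W1 to W5, 9.72, 9.40, 9.59, 9.5 and 9.43 in H1 to H5 and 9.21, 9.66, 9.21, 9.34 and 9.14 in N1 to N5, a difference of -0.16 (SE 0.087, adjusted p = 0.271). Here N2 was above every wild-type array and the others were below all of them. Cox8b relative to Cox8a changed by -0.20 (exact p = 0.19, adjusted p = 0.218) against wild type and -0.27 (exact p = 0.0238, adjusted p = 0.0476) against heterozygous arrays. In limma, an alternative chosen after seeing the data, this pair did not pass against heterozygous arrays (adjusted p = 0.12). Against heterozygous arrays the Cox8b call did not hold without any 1 of 8 arrays (H1, H3, H4, H5, N1, N3, N4 or N5; adjusted p = 0.0518 to 0.0933). Against wild type Cox8b passed without N2 (-0.50, adjusted p = 0.00752).

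The isoforms first known from testis and lung did not pass the test between null and wild type. Cox6b2, the testis form of subunit VIb, read 8.18, 7.92, 8.04, 7.74 and 7.94 in W1 to W5, 8.01, 7.90, 7.97, 8.07 and 7.94 in H1 to H5 and 7.85, 8.32, 7.99, 7.91 and 8.01 in N1 to N5, a difference of 0.05 (SE 0.087, adjusted p = 0.761). Its general partner Cox6b1 read 9.11, 9.28, 9.25, 8.97 and 9.06 in W1 to W5, 9.44, 9.13, 9.37, 9.37 and 9.10 in H1 to H5 and 8.80, 9.08, 8.69, 8.92 and 8.90 in N1 to N5, a difference of -0.26 (SE 0.086, adjusted p = 0.0777) against wild type and -0.40 (SE 0.086, adjusted p = 0.0108) against heterozygous arrays. Cox6b2 relative to Cox6b1 changed by 0.31 (exact p = 0.0238, adjusted p = 0.0635) against wild type and by 0.44 (exact p = 0.00794, adjusted p = 0.0212) against heterozygous arrays. In limma, chosen after seeing the data, the adjusted p of this pair against wild type was 0.0299. Cox4i2, the lung-type form of subunit IV, was close to the filter and read 5.20, 5.21, 5.28, 5.34 and 5.38 in W1 to W5, 5.40, 5.28, 5.56, 5.36 and 5.32 in H1 to H5 and 5.25, 5.74, 5.32, 5.28 and 5.24 in N1 to N5. Its difference was 0.08 (SE 0.086, adjusted p = 0.598), and relative to Cox4i1 the change was 0.20 (exact p = 0.127, adjusted p = 0.169). The values above 0 of Cox4i2 and Cox6b2 turned below 0 without N2 (-0.0095 and -0.024), and that of Cox6b2 also without W4 (-0.004).

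In ATP synthase the c-ring genes changed unequally. Atp5g1, Atp5g2 and Atp5g3 encode the same mature c subunit behind different import signals. Atp5g1 read 10.56, 10.43, 10.43, 10.19 and 10.19 in W1 to W5, 10.31, 10.34, 10.39, 10.34 and 10.22 in H1 to H5 and 9.34, 10.24, 9.83, 10.02 and 9.70 in N1 to N5. All null arrays but N2 were below the wild-type range, and the difference was -0.53 (SE 0.12, adjusted p = 0.0142). Without N1 and N5 it was -0.33 and the call was lost (adjusted p = 0.0706). Atp5g2 read 10.10, 10.08, 10.11, 10.03 and 9.90 in W1 to W5, 10.03, 9.97, 10.17, 10.15 and 10.01 in H1 to H5 and 9.68, 10.13, 9.80, 9.96 and 10.02 in N1 to N5, a difference of -0.13 (SE 0.078, adjusted p = 0.341). Atp5g3 read 11.52, 11.43, 11.41, 11.35 and 11.49 in W1 to W5, 11.59, 11.43, 11.44, 11.45 and 11.43 in H1 to H5 and 11.37, 11.27, 11.36, 11.40 and 11.22 in N1 to N5, a difference of -0.12 (SE 0.056, adjusted p = 0.211). For Atp5g2, N1 and N3 lay below the wild-type range, N4 and N5 inside it and N2 above it. For Atp5g3, N2 and N5 lay below the range and the other null arrays inside it.

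Relative to Atp5g2, Atp5g1 stood at 0.46, 0.35, 0.32, 0.16 and 0.29 in wild-type arrays, 0.28, 0.37, 0.22, 0.19 and 0.21 in heterozygous arrays and -0.34, 0.11, 0.03, 0.06 and -0.32 in null arrays. Null arrays did not overlap with the other genotypes. N1 and N5, the arrays with Xist signal, lay farthest below. The other null arrays reached up to 0.11, near the lowest wild-type array at 0.16. The change was -0.41 (exact p = 0.00794, adjusted p = 0.0317) against wild type and -0.35 (exact p = 0.00794, adjusted p = 0.0212) against heterozygous arrays. Relative to Atp5g3 the change of Atp5g1 was -0.42 (exact p = 0.0317, adjusted p = 0.0635), and Atp5g2 relative to Atp5g3 changed by -0.01 (exact p = 0.96, adjusted p = 0.96). With all arrays both pairs are at the smallest p of the exact test, and each passes because the other is there too. In the 6 fits named above, and without N1 and N5, no pair passed, and these lost calls follow from that floor as well as from the values. Without N2, 4 pairs passed.

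The catalytic F1 head and its central stalk had 1 of 5 genes lower and a median of -0.13. Atp5a1, the alpha subunit, read 11.86, 11.88, 11.91, 11.79 and 11.82 in W1 to W5, 11.80, 11.74, 11.83, 11.88 and 11.75 in H1 to H5 and 11.63, 11.83, 11.81, 11.81 and 11.67 in N1 to N5, a difference of -0.10 (SE 0.055, adjusted p = 0.27). Atp5b, the catalytic beta subunit, read 11.81, 11.82, 11.84, 11.67 and 11.79 in W1 to W5, 11.80, 11.75, 11.76, 11.80 and 11.81 in H1 to H5 and 11.54, 11.75, 11.62, 11.78 and 11.57 in N1 to N5, a difference of -0.13 (SE 0.057, adjusted p = 0.159). In each, some null arrays lay inside the wild-type range. The gamma subunit Atp5c1 differed by -0.05 (SE 0.07, adjusted p = 0.724) and the delta subunit Atp5d by -0.17 (SE 0.063, adjusted p = 0.0997), which passed without N2 (-0.23, adjusted p = 0.0116). The epsilon subunit Atp5e fell, at -0.37 (SE 0.11, adjusted p = 0.0431). Its call was lost without any 1 of W1 to W3, H2 and H3 and N1, N3 and N5 (-0.40 to -0.29, adjusted p = 0.0502 to 0.119).

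The peripheral stalk, which holds the head still, had 2 of 4 genes lower. Atp5pb, its b subunit, read 10.89, 10.89, 10.98, 10.73 and 10.76 in W1 to W5, 10.73, 10.71, 10.79, 10.72 and 10.77 in H1 to H5 and 10.41, 10.64, 10.58, 10.70 and 10.57 in N1 to N5. The null arrays lay below every other array, and the difference was -0.27 (SE 0.062, adjusted p = 0.0142). Atp5o, the protein that joins stalk and head, read 9.25, 9.34, 9.19, 9.07 and 9.11 in W1 to W5, 9.33, 9.03, 9.18, 9.34 and 9.11 in H1 to H5 and 8.74, 8.98, 9.0, 8.92 and 8.92 in N1 to N5. Null arrays did not overlap with wild type or with heterozygous arrays, and the difference was -0.28 (SE 0.074, adjusted p = 0.0284). The Atp5o call was lost without W1, W2 or W3 or N1 (-0.28 to -0.24, adjusted p = 0.0598 to 0.0839). Atp5h differed by -0.13 (SE 0.069, adjusted p = 0.251) and Atp5j by -0.06 (SE 0.06, adjusted p = 0.556). The other probe sets of Atp5h were at -0.26 and -0.30.

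Small membrane subunits, several of which hold ATP synthase dimers together, had 2 of 5 genes lower and a median of -0.29. Atp5k, subunit e, read 9.48, 9.24, 9.25, 9.25 and 9.19 in W1 to W5, 9.41, 9.29, 9.28, 9.35 and 9.32 in H1 to H5 and 8.79, 9.17, 8.91, 9.03 and 8.68 in N1 to N5. No null array reached another genotype, and the difference was -0.37 (SE 0.081, adjusted p = 0.0113). Without N1 and N5 it was -0.25 and the call was lost (adjusted p = 0.0798). Atp5md read 10.74, 10.85, 11.15, 10.84 and 10.70 in W1 to W5, 10.89, 10.85, 10.70, 10.84 and 10.54 in H1 to H5 and 10.19, 9.93, 10.44, 10.72 and 10.81 in N1 to N5. N1, N2 and N3 were below the wild-type range and N4 and N5 were inside it, and the difference of -0.44 (SE 0.14, adjusted p = 0.0591) missed the threshold despite its size. Atp5mpl fell, at -0.28 (SE 0.085, adjusted p = 0.0489), a call lost without any 1 of 11 arrays (all but W4, H1, N2 and N5; -0.30 to -0.23, adjusted p = 0.0553 to 0.137). Atp5l, subunit g, differed by -0.29 (SE 0.091, adjusted p = 0.0584) and Atp5j2, subunit f, by -0.18 (SE 0.077, adjusted p = 0.158). Atp5md passed without N4 or N5 (-0.54 to -0.51, adjusted p = 0.0199 to 0.0333). Atp5l passed without W4 or W5 or N5 (-0.36 to -0.33, adjusted p = 0.016 to 0.0461).

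Heterozygous choroid plexus was not told apart from wild type. In limma's test 0 of 41 members passed, as did 0% of all genes, and 0 members had an unadjusted p under 0.05, against 3.77% of all genes. The median difference was -0.01, and every adjusted p was 0.994. The smallest p-values were those of Atp5j, with 0.12 (95% confidence interval -0.01 to 0.25), Atp5l, with -0.17 (95% confidence interval -0.36 to 0.02), and Cox6b1, with 0.15 (95% confidence interval -0.03 to 0.33). Atp5j, a stalk subunit, read 11.27, 11.23, 11.24, 11.15 and 11.08 in W1 to W5, 11.26, 11.22, 11.46, 11.31 and 11.32 in H1 to H5 and 11.11, 11.27, 11.08, 11.11 and 11.08 in N1 to N5. Atp5l read 9.45, 9.43, 9.52, 9.12 and 9.19 in W1 to W5, 9.23, 9.16, 9.12, 9.19 and 9.18 in H1 to H5 and 8.99, 8.83, 8.95, 9.16 and 9.33 in N1 to N5. Heterozygous and wild-type arrays overlapped in all 3 genes. For Cox7a1 the difference was -0.05 (95% confidence interval -0.35 to 0.26), an interval that does not reach the null value of -0.99. The count stayed at 0 without H1, which carried the high neuronal and cerebellar markers.

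Null against heterozygous arrays gave the same direction. Of 41 members 12 fell and 0 rose, against 3.54% of all genes called lower and 4.28% called higher, with a median of -0.21. In 13 members no null array reached a heterozygous array, against 2.73% of all genes. Both comparisons use the same null arrays and are not independent of each other. The smallest p-values were those of Cox7a1, -0.94 (SE 0.15, adjusted p = 0.00179), Ndufa4, -0.29 (SE 0.054, adjusted p = 0.00481), and Uqcr10, -0.34 (SE 0.065, adjusted p = 0.00594). The other members that fell were Atp5k, Cox5b, Cox6b1, Atp5g1, Uqcrc1, Atp5o, Cox8b, Cyc1 and Uqcrfs1, at -0.49 to -0.28. Whichever array was left out, the call held for Cox7a1, Ndufa4, Uqcr10, Atp5k, Cox5b and Cox6b1. It was lost for Atp5g1 without H3 (adjusted p = 0.0543), for Uqcrc1 without H1, H3 or N1, for Atp5o without H1, H3, H4 or N1, for Cyc1 without any 1 of 7 arrays and for Uqcrfs1 without any 1 of 10 (adjusted p = 0.0514 to 0.105). Without N1 and N5 the fit called 4 (Cox7a1, Ndufa4, Uqcr10 and Atp5k). It called 7 without H1, 6 without H3, 7 without N1 and 22 without N2.

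Genes around the 3 complexes were read from lists of the same pathway, where 0 rose in any list. Cycs, the cytochrome c that carries electrons from complex III to complex IV, fell (-0.55, SE 0.075, adjusted p = 0.000594), as did the ADP/ATP carrier Slc25a5 (-0.21, adjusted p = 0.027). They were 2 of the 7 genes of that list, and Cycs alone passed without N1 and N5. Of all genes tested 3.54% were called lower, and 1.4% without those arrays. Of complex I, the entry point for electrons from NADH, 12 of 34 subunits fell, with a median of -0.23 (without N1 and N5, 2 of 34, Ndufb11 and Ndufb9, and -0.19); the smallest p-values were those of Ndufb11 (-0.36), Ndufb9 (-0.43) and Ndufb6 (-0.43). Of complex II, 0 of 4 subunits passed (median -0.15). Without N2, its Sdhd and Sdhc passed (-0.24 and -0.22). The Slc25a5 call was lost without W1, W2 or W3 or N1 or N3 (-0.22 to -0.17, adjusted p = 0.0512 to 0.0762).

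Assembly factors and regulators were read in the same way. In complex IV 1 of 19 fell, Cox20, which helps mature a mitochondrially encoded subunit (-0.44, SE 0.065, adjusted p = 0.000942), a share of 5.26% close to the 3.54% of all genes, and in complex III 0 of 5 passed. In ATP synthase 1 of 4 fell, Tmem70 (-0.29, adjusted p = 0.0378), a call lost without W1, W2 or W3 or N1, N3 or N5 (adjusted p = 0.0661 to 0.108). The inhibitor Atpif1 differed by -0.24 and passed without N2 (-0.33, adjusted p = 0.00966). Of 13 regulators of respiratory gene transcription 0 passed; Nrf1 differed by 0.34 (adjusted p = 0.113), and passed without N4 (0.44, adjusted p = 0.0316), and Ppargc1a by -0.28 (adjusted p = 0.134). Among 13 genes of mitochondrial copy, import and structure, Timm23, part of the import channel, fell (-0.36, adjusted p = 0.0048), as did Immt, which shapes cristae (-0.25, adjusted p = 0.0285). Without N1 and N5, Cox20 and Timm23 kept their calls, and Tmem70 and Immt did not. The Immt call was lost without W1, W2 or W3 or N1 or N3 (-0.24 to -0.22, adjusted p = 0.07 to 0.0837).

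Some markers of other cell types differed between null and wild-type arrays, in both directions. Of all genes tested, 4.17% were called higher and 3.54% lower. With all arrays, 0 of 3 neuron, 0 of 5 oligodendrocyte, 0 of 4 macrophage and 0 of 1 erythroid markers above the filter passed. Of the 7 stromal fibroblast markers Dcn and Pdgfra rose in null arrays (0.68 and 0.79) and Ogn fell (-0.59), and their summed level was 10.7 to 11.1 in wild-type and 11.1 to 11.4 in null arrays. Of the 4 endothelial markers above the filter, Kdr and Cdh5 rose (0.49 and 0.55), and the summed level was 8.26 to 8.63 in wild-type and 8.52 to 9.02 in null arrays. Of the 6 astrocyte and radial glia markers above the filter, Sox2 rose (0.35), and the summed level was 9.80 to 9.85 in wild-type and 10 to 10.5 in null arrays. Epithelial markers moved both ways, Aqp1 by 0.34, Kcne2 by -0.24 and Kcnj13 by -0.23, around a median of 0.01. Of the 4 ependymal markers above the filter Ccdc153 rose (0.53) and Dynlrb2 fell (-0.31), and the summed level was 8.84 to 9.04 in wild-type and 8.83 to 9.13 in null arrays. Of the 4 cerebellar granule neuron markers above the filter 0 passed, with a median of -0.45 that was -0.27 without N1 and N5; Cbln3 and Gabra6 passed without H1 (-0.51 and -0.57). Their summed level was 9.05 to 9.20 in wild-type and 8.95 to 9.33 in null arrays. Without N1 and N5 the calls of Sox2, Pdgfra, Kcne2, Kcnj13 and Dynlrb2 were lost (adjusted p = 0.0722, 0.0621, 0.111, 0.0643 and 0.0933). Gfap (1.02, adjusted p = 0.0468), Aqp4 (0.82, adjusted p = 0.0484) and the macrophage marker Cx3cr1 (0.35, adjusted p = 0.029) then passed, where they had been 0.48, 0.55 and 0.16. The Dynlrb2 call was also lost without any 1 of 8 arrays (adjusted p = 0.0557 to 0.124). The Cdh5 call was lost without W1, W2 or W3 or N3 or N4 (adjusted p = 0.0557 to 0.0789), the Ogn call without W3 or N1 or N3 (0.0576 to 0.0694), and those of Kcne2 and Kcnj13 without W1 or W2 or N1 or N3 (0.0576 to 0.0803). Gja1 and Aldh1l1 passed without W5 (0.90) and without N2 (0.22). Their part in the lower values of the respiratory genes was not tested.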

How the data were processed

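Each of the 15 mice gave 1 array, and samples were grouped by the genotype in their labels. The authors deposited log2 values per probe set; per the submitters' processing notes they used Affymetrix Expression Console 1.1 with RMA, which corrects background, normalizes quantiles and summarises probes, so overall brightness is levelled across arrays. Neither log base nor genome build is named in the sources used here; the base was inferred from the range of the values, 1.57 to 13.89. Per the labels, 250 ng of RNA was labelled.

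Of 35556 probe sets, 21789 had 1 symbol in the platform annotation, 1621 several, and 12146 were not listed and stay unnamed; 21698 matched the RefSeq gene table of GRCm38.p6. Genes above 5.31, the median of the kept probe sets, in at least 5 arrays were tested (10109 genes). All 15 arrays entered 1 fit with lmFit and eBayes of limma 3.58.1 under R 4.3.3 without covariates, with Benjamini-Hochberg adjustment over all genes tested, and calls were made at 0.05. The code was tested on simulated data. Isoform pairs were compared by exact permutation. The number of arrays limits precision, and differences of dim genes are compressed. In limma, p-values set a difference against the spread between animals, pooled over the genotypes and drawn towards that of all genes. No 2 arrays were alike: the smallest SD between any of 105 pairs was 0.127.

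Members and lists were chosen with earlier results of these data known. Values per array are given for the 4 smallest p-values in each complex, the isoform pairs, members differing by at least 0.4, the 3 smallest p-values in each heterozygous comparison, and Cyc1, Uqcrc1, Cox4i1, Cox5a, Atp5a1 and Atp5b; up to 3 genes by p were named from each pathway list. Of the 12 members with several probe sets, 11 had all of them below 0 in null arrays. With the mean of all probe sets of a gene, 16 of the 17 called members kept their call, and Atp5pb did not. Alternatives were filters, probe set averaging, array scaling, fits on the genotypes compared, a replicate block, variance and array weighting, the label number, and leaving out arrays.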

Additional observations from a re-analysis of the deposited data

Results flagged for a closer look

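Among 29 members examined in 87 groups of 5 arrays, 5 groups held an array far from the other 4 by Dixon's test, a number that chance gives at about 1 in 20 groups. Atp5g3 read 11.59 in H1, where the other heterozygous arrays read 11.43 to 11.45. Uqcrc1 read 10.17 in the same array, against 10.09 to 10.11 in the others. Atp5j read 11.27 in N2, against 11.08 to 11.11 in the other null arrays. Cox4i2 read 5.74 in that array, against 5.24 to 5.32, close to the filter. Atp5k read 9.48 in W1, against 9.19 to 9.25 in the other wild-type arrays. Without that array Atp5k still passed against null.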

How the results depend on the processing

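For null against wild type and null against heterozygous, the members' median difference moved by less than the replicate spread under every alternative run. That spread is the pooled SD of the array means within genotypes. Both medians also stayed below 0, and the heterozygous count stayed at 0. For null against wild type the count of 17 became 10 without a filter, 10 with only the 2 genotypes compared, 1 with the label number as a linear term and 3 without the 2 null arrays with Xist signal; it ran from 9 to 26 when single arrays were left out. For null against heterozygous the count of 12 became 19 with arrays centred on a common median, 7 with only the 2 genotypes compared, 1 with the label number as a linear term and 4 without the arrays with Xist signal, and ran from 6 to 22 when single arrays were left out. Deviations of same-numbered arrays of different genotypes correlated at -0.25 to 0.24. Arrays with unlike replicate numbers were not compared, so these values cannot tell whether the numbers pair the animals. With the replicate block the count for null against wild type was 9. With that block 0 isoform pairs passed, Cox7a1 minus Cox7a2 being -0.72 (adjusted p = 0.167). The 32 sign flips of 5 blocks cannot give an exact p under 0.0625, so that no pair could pass. In limma with the block, chosen after seeing the data, 2 did (adjusted p = 0.000861 for Cox7a1 minus Cox7a2). Of the 2 pairs that passed, 0 did so without the arrays with Xist signal (Cox7a1 minus Cox7a2 -0.72), a design whose smallest p, 0.0179, passes over 8 pairs only with other small p-values beside it, and 1 did in limma (0.000323); 0 to 4 pairs passed when single arrays were left out, with Cox7a1 minus Cox7a2 at -0.78 to -0.67. Reversed directions were those of Cox4i2 without N2 (-0.0095, in a range up to 0.116 over the single arrays left out), Cox6b2 without N2 (-0.024, in a range up to 0.106) and without W4 (-0.004), and Cox7a2l with that linear term (0.068); none of these was called. The cause of these changes was not tested, though the fits to fewer arrays hold fewer samples. Over the named members, 819 of the alternative values kept direction and side of the threshold, 54 lost the call and 13 gained it.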
